A study of Nicotiana tabacum with 6 samples.

Results

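The genes described here code for members of the MAP kinase cascade, a relay of protein kinases. They were taken as every probe set whose symbol in the annotation of the tomato array is MPK3, MEK1, MKK3 or MKK4. This gave 6 of the 10101 tested probe sets, 3 for MPK3 (gene ID 543880) and 1 each for MEK1 (543720), MKK3 (543947) and MKK4 (543948). The genes were chosen by their log2 differences between the 3 genotypes in an earlier look at these same data, where MPK3 stood out, and then by symbol. All comparisons of the 6 probe sets are therefore descriptions, given as values with standard errors (SE) and without p-values.

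Leaf RNA came from tobacco (Nicotiana tabacum, cultivar Petit Havanna in the labels' spelling). In each group 2 arrays were measured: a psaA deletion (this plastid gene codes for a core protein in photosystem I), a psbA deletion (another plastid gene, coding for D1 in photosystem II) and normal (wild-type) plants. The same growth text is attached to all groups: culture bottles in dim light (16 h light, 8 h dark), on selection medium with 500 mg/L spectinomycin, and leaves taken 2 to 3 weeks after subculture. It is unclear whether wild type was really grown on the drug, so drug and genotype cannot be told apart in comparisons with wild type. Arrays of 1 group are termed biological replicates, with nothing said of separate plants or lines, so the errors may measure technical spread.

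In a MAP kinase cascade, a kinase kinase kinase activates a MAP kinase kinase, which activates a MAP kinase by phosphorylating it, and the MAP kinase then phosphorylates transcription factors and enzymes. In plants the cascade carries signals of wounding, pathogens and reactive oxygen, and the relay itself runs on phosphorylation of proteins already present. The array measures RNA only. MPK3 is the MAP kinase among the 4 genes, and its counterpart in tobacco is the wound-induced protein kinase WIPK, known for a transcript that accumulates after wounding and infection. MEK1, MKK3 and MKK4 are MAP kinase kinases. In tomato, MKK4 is known to phosphorylate MPK3 and to cause cell death when overproduced, and in Arabidopsis MKK3 is known for a part in jasmonate signalling.

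Values are log2 signals from which the median of the 6 arrays had been taken away for each probe set, so 0 is the middle of the 6 arrays and no level of expression can be read. For that reason neither the order of levels between genes nor the presence of leaf marker transcripts could be checked. Probes were designed on tomato sequences, so a tobacco transcript is seen to the extent that it resembles them. The table of tobacco genes used for names (assembly ASM71507v2) lists 1 entry each under the names MPK3, WIPK, mek1 and MKK4 and 0 under MKK3. Which of the tobacco MPK3 and WIPK genes binds to the tomato MPK3 probes was not tested. Neither deletion could be checked on the arrays, because no probe set carries psaA or psbA as its symbol. Replicate arrays differed by a median of 0.12 (psaA deletion), 0.13 (psbA deletion) and 0.12 (wild type) log2 units over the 10101 probe sets.

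MPK3 transcript was higher in the psaA deletion and much lower in the psbA deletion than in wild type. At probe set Les.4316.1.S1_at the centred log2 signal was 0.56 and 0.66 in the psaA deletion, -1.70 and -1.74 in the psbA deletion, and -0.08 and 0.08 in wild type. The 3 groups were fully apart, and the replicate arrays lay within 0.16 of each other in every group. At LesAffx.16424.1.S1_s_at the signal was 0.89 and 0.88 in the psaA deletion, -0.65 and -1.33 in the psbA deletion, and 0.04 and -0.04 in wild type. The groups did not overlap here either, but the psbA arrays were 0.68 apart, a wider gap than in 99.07% of all tested probe sets. At LesAffx.16424.1.A1_at the signal was 0.12 and 0.03 in the psaA deletion, -0.39 and -0.16 in the psbA deletion, and 0.02 and -0.02 in wild type. The same order of groups appeared at this probe set with far smaller gaps.

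**Figure D1:**
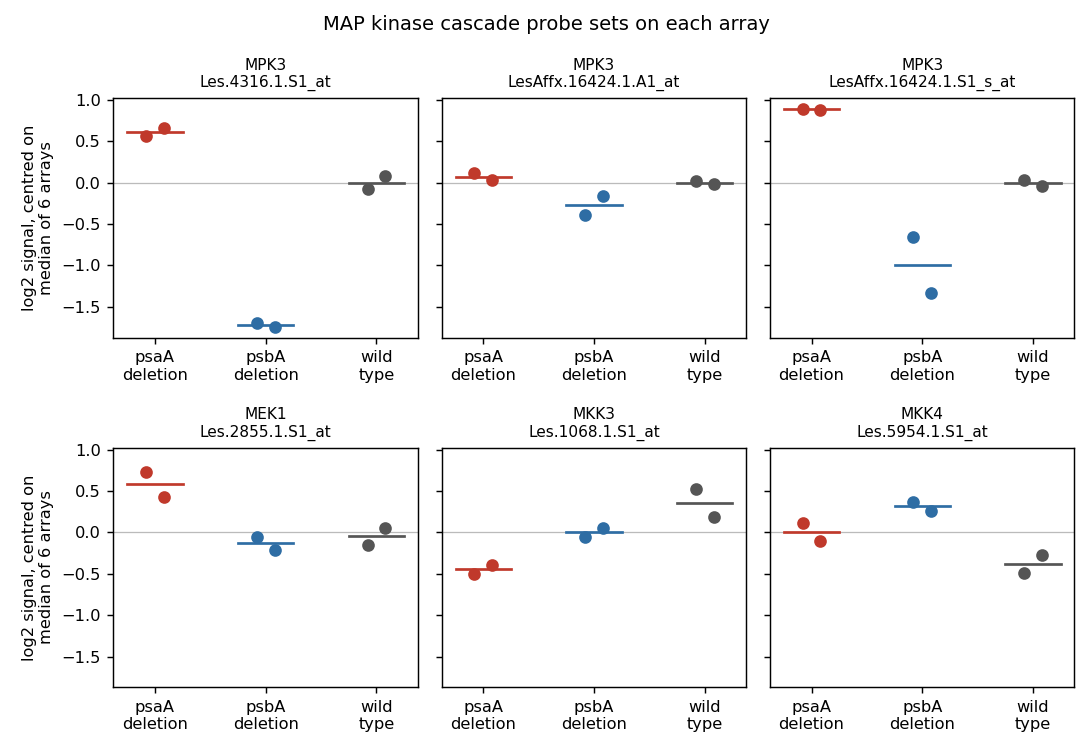
Centred log2 signal (vertical axis) of the 6 MAP kinase cascade probe sets on each array, with the psaA deletion, the psbA deletion and wild type from left to right. Points are arrays (2 per group) and lines are group means. MPK3 at Les.4316.1.S1_at lies near 0.61 in the psaA deletion, -1.72 in the psbA deletion and 0 in wild type, while MKK4 is lowest in wild type.

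Set against wild type, MPK3 in the psaA deletion differed by 0.61 (SE 0.111, n = 2 per group) at Les.4316.1.S1_at, a 1.53-fold higher signal. The difference was 0.89 (SE 0.195) at the _s_at probe set and 0.07 (SE 0.118) at the A1 probe set. Counted from the most raised of the 10101 probe sets, these stood at places 218, 65 and 4014. In the psbA deletion MPK3 differed from wild type by -1.72 (SE 0.111) at Les.4316.1.S1_at, a 3.29-fold lower signal. There the _s_at and A1 probe sets gave -0.99 (SE 0.195) and -0.27 (SE 0.118). Counted from the most lowered, the places were 9, 112 and 1348.

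Between the mutants, MPK3 in the psbA deletion was 5.03-fold lower than in the psaA deletion at Les.4316.1.S1_at (-2.33, SE 0.111), the third lowest of all differences on the array. The _s_at probe set gave -1.88 (SE 0.195), at place 10, and the A1 probe set -0.35 (SE 0.118), at place 616. Both psaA arrays lay above and both psbA arrays below both wild-type arrays at 3 of 3 MPK3 probe sets, an order found in 2.96% of all tested probe sets, although the A1 probe set turned to -0.16 in the psaA deletion when arrays were scaled on poly-A controls. Probe sets annotated to 1 gene are not replicates, and the pair of LesAffx probe sets carries 1 sequence number with different endings, A1 and S1. Whether the A1 probe set measures the same MPK3 transcript was not tested. The root mean square difference over the 6 arrays was 0.49 between Les.4316.1.S1_at and the _s_at probe set, against 0.90 and 0.68 between the A1 probe set and these.

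MEK1, a MAP kinase kinase, was higher in the psaA deletion than in the other groups. Its centred log2 signal at Les.2855.1.S1_at was 0.73 and 0.43 in the psaA deletion, -0.05 and -0.21 in the psbA deletion, and -0.15 and 0.05 in wild type. The psaA arrays stood above all others, and the psbA and wild-type arrays overlapped. The difference from wild type was 0.63 (SE 0.139) in the psaA deletion and -0.08 (SE 0.139, 95% interval -0.40 to 0.23) in the psbA deletion. The psbA deletion lay 0.71 below the psaA deletion (-0.71, SE 0.139), so MEK1 stood apart in the same direction as MPK3 between the mutants. On the deposited scale MEK1 was not low in the psbA deletion beyond its error, but it gave -0.54 with arrays scaled on poly-A controls.

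MKK3 ran the other way from MPK3 and MEK1 in the psaA deletion and between the mutants. At Les.1068.1.S1_at it had -0.51 and -0.39 in the psaA deletion, -0.06 and 0.06 in the psbA deletion, and 0.53 and 0.19 in wild type. Both mutants lay below wild type, with the psaA deletion the lower of the mutants, and the wild-type arrays were 0.34 apart. The difference from wild type was -0.80 (SE 0.137, 1.75-fold lower) in the psaA deletion and -0.36 (SE 0.137) in the psbA deletion. Between the mutants, the psbA deletion was higher than the psaA deletion by 0.45 (SE 0.137).

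MKK4 was higher in both mutants than in wild type. Its signal at Les.5954.1.S1_at was 0.11 and -0.11 in the psaA deletion, 0.37 and 0.26 in the psbA deletion, and -0.49 and -0.28 in wild type. All 4 mutant arrays lay above both wild-type arrays, the psbA arrays highest. The difference from wild type was 0.38 (SE 0.128) in the psaA deletion and 0.70 (SE 0.128, 1.62-fold higher) in the psbA deletion. The psbA deletion exceeded the psaA deletion by 0.32 (SE 0.128, 95% interval 0.02 to 0.61). MPK3 and MKK4, which act in sequence in tomato, thus had opposite signs in the psbA deletion: -1.72 at the first MPK3 probe set and 0.70 for MKK4. The MKK4 value shrank to 0.24 with arrays scaled on poly-A controls.

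**Figure D2:**
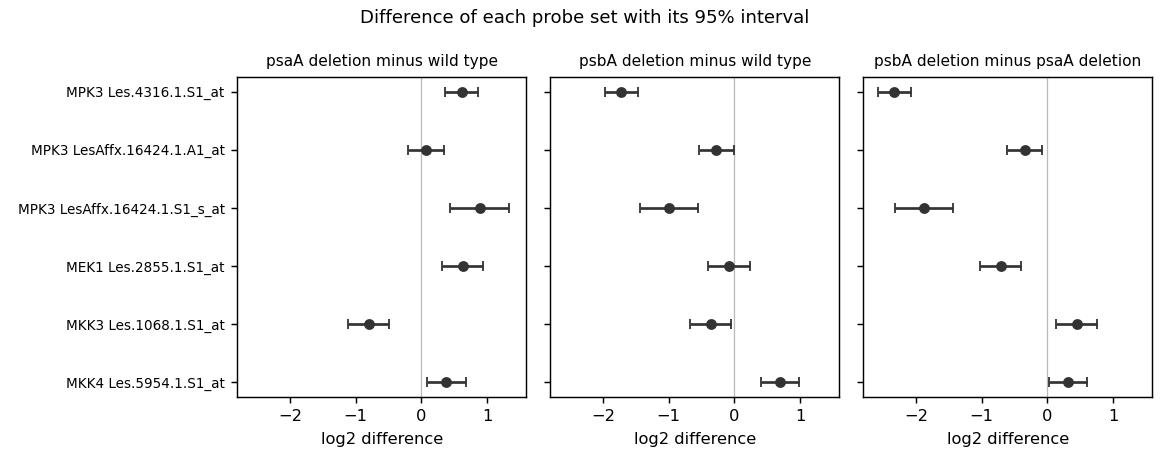
Log2 difference of each cascade probe set (horizontal axis) with its 95% interval from the limma model, in the 3 comparisons named above the panels. The comparisons share arrays: psaA and psbA minus wild type share the wild-type arrays. MPK3 at Les.4316.1.S1_at runs to -2.33 in psbA minus psaA deletion, while MKK3 and MKK4 lie to the right of 0 there.

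By the array-wide threshold (limma, adjusted p under 0.05 over 10101 probe sets), 4 of the 6 probe sets were past it in the psaA deletion against wild type, where 10.7% of all probe sets were. These were the first and the _s_at MPK3 probe sets and MEK1 on the higher side (4.66% of all) and MKK3 on the lower side (6.06%). In the psbA deletion against wild type 3 of 6 were past it (11.2% of all), the same pair of MPK3 probe sets lower (5.76%) and MKK4 higher (5.41%). For psbA minus psaA deletion 3 of 6 were past it (3.98% of all), that MPK3 pair and MEK1, all lower (2.2% of all, against 1.78% higher). Since the choice of genes was made with these comparisons known, nothing is read from these shares. Groups did not overlap in 6 of 6 probe sets for the psaA deletion and wild type (53.7% of all), in 5 of 6 for the psbA deletion and wild type (52.7%) and in 6 of 6 for the psbA and psaA deletions (47.7%).

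With 1 array left out, the 4 of the psaA comparison became 1 if it was the first psaA or the first wild-type array and 2 if it was the second of either group. Of the 3 in the psbA comparison, 2 were left without the first psbA array, 1 without the first and 2 without the second wild-type array. Between the mutants 2 were left whichever of the 4 mutant arrays was taken out. MPK3 at Les.4316.1.S1_at stayed past the threshold in the psbA deletion, against wild type and against the psaA deletion, in every fit with 1 array left out. In the psaA deletion it did not pass without psaA replicate 2 (a difference of 0.56) or without wild-type replicate 1 (0.53). The _s_at probe set lost its psaA call without either psaA array (0.88 and 0.89) or either wild-type array (0.92 and 0.85). Its psbA call was lost without either wild-type array (-0.95 and -1.03). Scaling of the arrays on spiked poly-A RNAs shifted the array-wide median to -0.22 for the psaA deletion, -0.44 for the psbA deletion and -0.20 for psbA minus psaA deletion. On that scale MPK3 at Les.4316.1.S1_at gave 0.38, -2.18 and -2.56 in these comparisons. The 0.38 of the psaA deletion was not past the threshold (limma, adjusted p = 0.101). The A1 probe set of MPK3 turned to -0.16 in the psaA deletion and gave -0.73 in the psbA deletion, MKK3 gave -1.04 and -0.82, MEK1 gave 0.39 in the psaA and -0.54 in the psbA deletion, and MKK4 gave 0.15 and 0.24. The sign turned at the A1 probe set of MPK3 in the psaA deletion and at no other cascade probe set. On that scale MEK1 was not past the threshold in the psaA deletion (limma, adjusted p = 0.107). In the psbA deletion MEK1, MKK3 and the A1 probe set were past it. MKK4 was not past it there, while 60.5% of all probe sets were.

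Signs of RNA quality differed between the genotypes too. The 3' minus 5' signal of the control probe sets for actin, gapdh, ef1a and ubiquitin was higher in the psaA deletion than in wild type by 0.27, 0.28, 0.31 and 0.30, and in the psbA deletion differed by -0.13, -0.08, -0.09 and 0.32. The other 2 controls, GlutTrans and PhyB2, ran the other way in the psaA deletion (-0.12 and -0.13) and differed by 0.02 and -0.03 in the psbA deletion. Markers of meristem and dividing cells had 3 of 12 genes lower in the psaA deletion (6.06% of all probe sets), the mitotic genes CDKB1, CDKB2 and CycB2. In the psbA deletion 1 of 12 was higher, the replication gene PCNA (limma), against 5.41% of all higher and 11.2% in either direction. The median of that list was -0.23 and -0.18 on the psaA arrays, 0.02 and 0.02 on the psbA arrays, and -0.01 and 0.12 on the wild-type arrays. Leaving out single arrays moved the count of 3 to 0 (without psaA replicate 2 or wild-type replicate 2) or 1 (psaA replicate 1), and the count of 1 to 0 (without psbA replicate 1 or either wild-type array). With poly-A scaling 7 of 12 were lower in the psaA deletion (13.5% of all probe sets) and 9 of 12 in the psbA deletion (59.5%), where PCNA did not pass (0.11), and 7 of 8 root markers were lower in the psbA deletion. Of 8 root markers 0 passed in the psaA deletion (2 at an unadjusted p under 0.05) and 2 in the psbA deletion, Nramp2 (0.47) and NRAMP3 (-0.48), a count of 1 without psbA replicate 1 and 0 without any other single array, and of 3 markers of epidermis, xylem, flower and fruit 0 passed in either (0 unadjusted). The part of RNA quality and of these cells in the values above was not tested. In whole leaves, fewer cells of a type and less RNA per cell cannot be told apart.

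The other kinases of the cascade on the array were not past the threshold on the deposited scale. Of 7 genes (MPK2, a MAP kinase, MKK2, a MAP kinase kinase, MAPKKKalpha, the kinase kinase kinase of a cell-death pathway in tomato, and CTR1, TCTR2, CTR3 and CTR4, Raf-like kinases of which CTR1 represses ethylene signalling) 0 passed in limma in each of the 3 comparisons. Of all probe sets 10.7%, 11.2% and 3.98% passed in these comparisons, so 0 of 7 does not set these kinases apart from the whole array. At an unadjusted p under 0.05 there were 0 in each mutant against wild type and 1 between the mutants, TCTR2 (-0.32). With poly-A scaling 0 passed in the psaA deletion, 3 in the psbA deletion and 1 between the mutants, all lower. On that scale 13.5%, 59.5% and 7.45% of all probe sets were called lower in these comparisons. On the deposited scale the medians were 0.16 in the psaA and 0.03 in the psbA deletion, against 0.02 for all tested probe sets in each comparison. MPK2 had 0.13 and 0.07 in the psaA deletion, -0.15 and -0.03 in the psbA deletion, and 0.03 and -0.16 in wild type. Its differences from wild type, 0.16 (SE 0.115) and -0.03 (SE 0.115), were of the size of its error. MAPK10 (-0.05 in the psaA and -0.37 in the psbA deletion) and TCTR1v (0.38 and 0.48), noticed in the annotation afterwards, did not pass either.

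All gene lists were drawn up with earlier results of these data known, which limits what their calls show. A list of genes placed upstream of the cascade held receptors, a kinase and NADPH oxidases, which make reactive oxygen. Of its 6 genes 4 rose in the psaA deletion, where 4.66% of all probe sets were called higher (median 0.63). The other 2, the oxidase gene RBOH1 (0.35) and Ve1 (-0.003), were not past the threshold. Eix1, a receptor for a fungal xylanase, rose by 0.89 (SE 0.111, adjusted p = 0.00152 in limma), and Wfi1, an NADPH oxidase gene, by 0.90 (SE 0.161, adjusted p = 0.00897). PTI1, a kinase that interacts with the resistance kinase Pto, rose by 0.64, and Ve2, which codes for a receptor-like protein at the Verticillium resistance locus, by 0.62. The rise of Ve2 lost its call whichever psaA or wild-type array was taken out (differences of 0.57 to 0.67). With poly-A scaling it was 0.39 and did not pass (limma, adjusted p = 0.161). Ve2 fell by 0.74 in the psbA deletion (limma, adjusted p = 0.0166), where 5.76% of all probe sets were called lower. The other 5 did not pass, and the median was -0.15. Between the mutants 4 of 6 were lower in the psbA deletion, as were 2.2% of all probe sets. The psbA minus psaA differences were -1.36 for Ve2, -1.22 for Wfi1, -1.09 for Eix1 and -0.51 for PTI1. The count of 4 in the psaA deletion was 1 without psaA replicate 2 or wild-type replicate 2, and 2 with poly-A scaling, the count of 1 in the psbA deletion was 0 without psbA replicate 1 or either wild-type array, and the count of 4 between the mutants was 2 without psaA replicate 2. PTI1 passed between the mutants in no fit with 1 array left out (adjusted p up to 0.235).

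Among 19 genes of calcium, lipid and other protein signalling, 2 rose in the psaA deletion and 17 did not pass. Of all probe sets, 4.66% were called higher there and 10.7% in either direction. They were PLDa1 (0.54), a phospholipase D gene, and Rab1A (0.47), a small GTPase of transport from the endoplasmic reticulum. In the psbA deletion DGK1, a diacylglycerol kinase gene, fell by 1.26 (SE 0.154, adjusted p = 0.00172 in limma), PLDb1, another phospholipase D gene, by 0.73 and Rab1A by 0.62. SNF1, a kinase gene of energy sensing, rose there by 0.45 (-0.0091 with poly-A scaling). The other 15 did not pass, while 11.2% of all probe sets were called. SNF1 lost its call whichever single array was taken out (differences of 0.41 to 0.49). The call was also lost with only the groups compared (limma, adjusted p = 0.0503). The psbA minus psaA differences of DGK1, Rab1A and PLDb1 were -1.22, -1.09 and -1.04, and all 3 passed (3.98% of all probe sets did). The list medians were 0.12 in the psaA and 0.06 in the psbA deletion. The psaA count of 2 was 0 without either psaA array or wild-type replicate 1, and 1 without wild-type replicate 2, and both calls were lost with poly-A scaling (0.31 for PLDa1 and 0.24 for Rab1A). The psbA count of 4 was 2 without psbA replicate 2 or either wild-type array and 12 with poly-A scaling, all lower.

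MPK3 and its tobacco counterpart are known for acting upstream of jasmonate and ethylene synthesis and of defence genes. Of 16 jasmonate and wound genes, loxD, the lipoxygenase of jasmonate synthesis, and AOC, the allene oxide cyclase, rose in the psaA deletion (0.72 and 0.69), loxC, another lipoxygenase gene, fell by 1.09, and 13 did not pass (median 0.07). LoxC fell by 1.46, loxD by 0.78 and opr2, of the oxophytodienoate reductase family, by 0.53 in the psbA deletion, and 13 did not pass (median -0.09). For psbA minus psaA deletion loxD (-1.50) and AOC (-1.08) passed, both lower. Of all probe sets, 10.7% were called in the psaA deletion, 11.2% in the psbA deletion and 3.98% between the mutants. The loxD rise did not pass without psaA replicate 2 (adjusted p = 0.0543), AOC did not with poly-A scaling (adjusted p = 0.0607), and opr2 did not without psbA replicate 1, either psaA array or either wild-type array (adjusted p up to 0.241). Its main adjusted p was 0.0495 in limma.

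Of 31 ethylene genes, 4 rose in the psaA and 2 in the psbA deletion, and 0 fell in either. Of all probe sets, 4.66% and 5.41% were called higher there, and 10.7% and 11.2% in either direction. Those of the psaA deletion were ACO4 (1.00), of ethylene synthesis, SAM1 (0.91), a S-adenosylmethionine synthetase gene, JERF1 (0.57), a response factor gene, and EIN2 (0.45), a central signalling gene. SAM1 (1.05) and EIN2 (0.54) were those of the psbA deletion. Between the mutants ACO4 was lower in the psbA deletion (-0.58), as were 2.2% of all probe sets. List medians were 0.06 in the psaA and 0.02 in the psbA deletion. The 4 became 2 whichever psaA or wild-type array was taken out, and the 2 became 1 without psbA replicate 2 or either wild-type array. EIN2 did not pass in the psbA deletion without either psbA or either wild-type array (adjusted p up to 0.0981) or with poly-A scaling (0.076). ACO4 did not pass between the mutants whichever of the 4 mutant arrays was taken out (adjusted p up to 0.198). A second ERF3 probe set gave 0.70 in the psaA deletion (adjusted p = 0.00602 in limma), against -0.34 (adjusted p = 0.172) at the one counted.

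Of 13 pathogenesis-related genes, 5 rose in the psaA deletion (4.66% of all probe sets were called higher), with a median of 0.25: GluB (1.23), a beta-1,3-glucanase gene, NP24-I (0.91), an osmotin-like protein gene, the chitinase genes CHI9 (0.87) and CHI14 (0.76), and PR-5 (0.86). In the psbA deletion GluB (1.14), NP24-I (0.60) and PR-5 (0.50) rose, and NPR1, a salicylic acid coactivator gene, fell by 0.71. There 9 did not pass (median 0.07), while 11.2% of all probe sets were called. With poly-A scaling NP24-I (0.14) and PR-5 (0.035) did not pass in the psbA deletion, and PR-5 passed in 4 of 13 alternatives. For psbA minus psaA deletion CHI14 (-1.25), NPR1 (-0.84) and CHI9 (-0.68) passed, all lower (2.2% of all probe sets were called lower). CHI9 lost that call in 6 of 13 alternatives (adjusted p up to 0.201). The 5 became 3 without psaA replicate 2, the 4 of the psbA deletion became 2 without either wild-type array, and the 3 between the mutants became 0 without psaA replicate 1 and 1 without psaA replicate 2.

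On the poly-A scale 60.5% of all 10101 probe sets passed in the psbA deletion, 59.5% of the 10101 as lower, so the list counts are read against that share. Lower there were 5 of 6 receptor and oxidase genes, 12 of 19 calcium, lipid and other signalling genes, 13 of 16 jasmonate and wound genes, 18 of 31 ethylene genes (1 higher) and 6 of 13 pathogenesis-related genes (1 higher). The calcium and ethylene counts lie near the share of all probe sets, and the pathogenesis-related count below it.

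**Figure D3:**
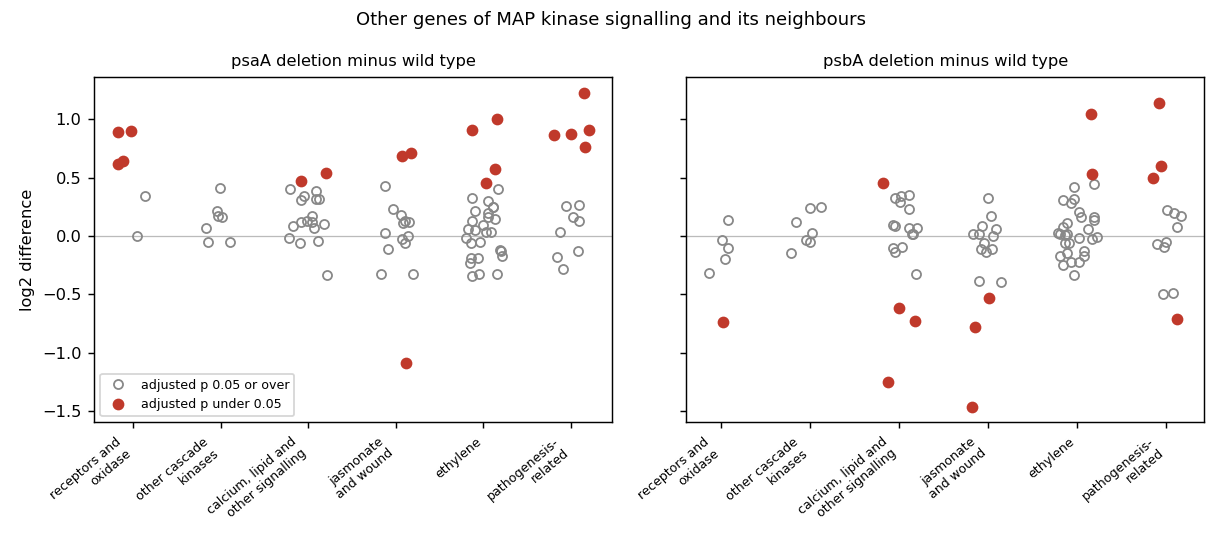
Log2 difference (vertical axis) of the psaA deletion (left) and the psbA deletion (right) from wild type for genes of 6 lists around the cascade, 1 point per gene. Filled points passed limma's adjusted p under 0.05 and open points did not. The 7 other cascade kinases are all open in both panels, and the 4 filled receptor and oxidase genes of the left panel lie between 0.62 and 0.90. Of all probe sets, 10.7% (left) and 11.2% (right) passed.

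The named genes whose values came closest to MPK3 were searched among 906 other probe sets with a symbol, by the root mean square difference over the 6 arrays. For Les.4316.1.S1_at the closest were DGK1 (0.48), loxD (0.55), LOC544153 (0.55), Ve2 (0.59) and PLDb1 (0.60), against 0.49 for the second MPK3 probe set. For the _s_at probe set they were loxD (0.20), LOC544153 (0.21), Rab1A (0.36), the farnesyl diphosphate synthase gene FPPS1 (0.36) and Ve2 (0.39). LoxD, LOC544153 and Ve2 are in both sets of names. LoxD, for example, had 0.69 and 0.75 in the psaA deletion, -0.67 and -0.90 in the psbA deletion, and 0.02 and -0.02 in wild type. It did not reach the psbA values of MPK3 at Les.4316.1.S1_at. DGK1, the closest to that probe set, did not share its rise in the psaA deletion, with -0.02 and 0.31 there and 0.02 and 0.36 in wild type. For MKK3, among 908 probe sets, the closest were CEL8 (0.09), a cellulase-family symbol, the phytoene synthase gene Psy1 (0.14), the phytoene desaturase gene PDS (0.15), the zeaxanthin epoxidase gene ZEP (0.15) and TBG7 (0.15), a beta-galactosidase gene. The range of MEK1, MKK4 and the A1 probe set of MPK3 over the arrays was below 1 log2 unit, and no closest genes were sought for them.

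**Figure D4:**
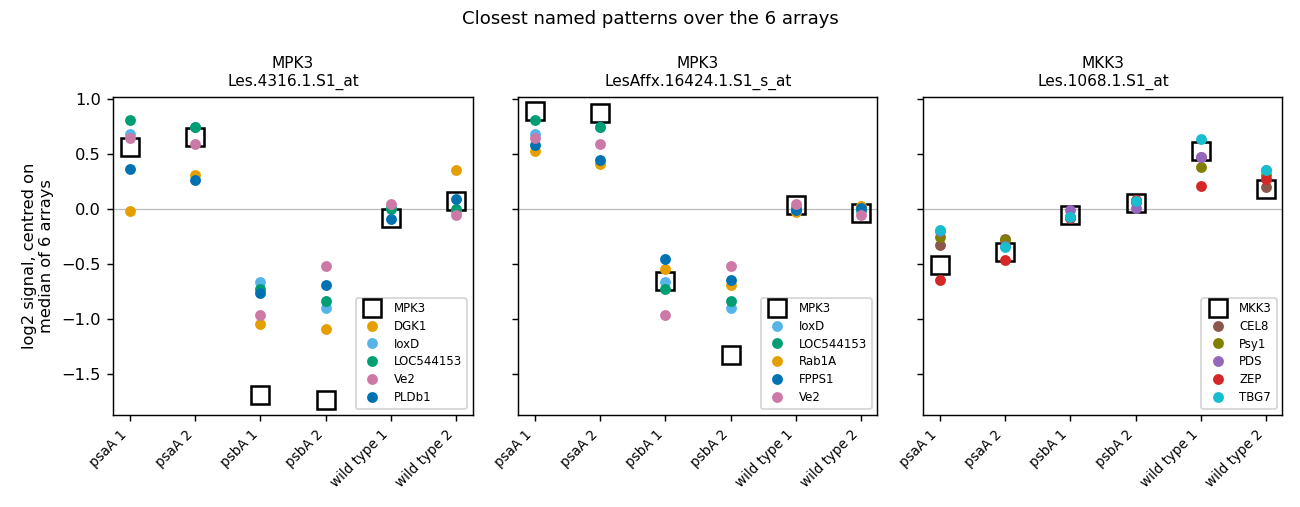
Centred log2 signal (vertical axis) on each of the 6 arrays for MPK3 at 2 probe sets and for MKK3 (open squares), with the 5 named genes closest to each (points). On the psbA arrays MPK3 at Les.4316.1.S1_at lies at -1.70 and -1.74, below each of its 5 closest genes.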

How the data were processed

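Leaf RNA of 2 psaA deletion, 2 psbA deletion and 2 wild-type tobacco samples was hybridised to tomato arrays as biotin-labelled cRNA from 5.0 ug of total RNA, per the labels' protocols. The deposited log2 values cover 10209 probe sets. RMA and GCRMA are named in the submitters' processing notes, and their versions and which of them made the values are not given in the sources used here. The base of the logarithm was taken as 2 because both methods give it. The median of every probe set was 0 to within 1e-06, so values hold differences and no level. Gene symbols came from the platform annotation: 909 probe sets had 1 symbol, 0 several and 9192 none.

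After removal of 108 control probe sets, limma 3.58.1 (R 4.3.3, lmFit and eBayes, 3 residual and 5.39 prior degrees of freedom) was fitted to the 10101 probe sets on all 6 arrays. P-values are two-sided and Benjamini-Hochberg adjusted over all of them, with 0.05 as threshold. The median SE was 0.125, and the number of arrays limits the precision. The fit was tested on simulated data. Listed genes were counted by 1 probe set each, a plain _at first and then by ID. Named are all cascade probe sets, list members called in at least 1 comparison, and the 5 symbols closest to each cascade probe set with a range of at least 1. The members and lists were chosen with earlier results of these data known. Alternatives were each array left out, a replicate block, scaling on 42 poly-A or 27 hybridisation control probe sets, quantile normalization, only the groups compared, robust eBayes, plain _at probe sets, control probe sets kept, and a threshold of 0.01. Plots were drawn with matplotlib 3.10.9.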

Additional observations from a re-analysis of the deposited data

Results flagged for a closer look

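At the 3 MPK3 probe sets every psaA array lay above and every psbA array below both wild-type arrays, so the mutants' effects had opposite signs (with poly-A scaling the A1 probe set turned to -0.16 in the psaA deletion). The psbA minus psaA differences were -2.33 (Les.4316.1.S1_at), -1.88 (the _s_at probe set) and -0.35 (the A1 probe set). Because MPK3 was chosen for this pattern, the difference was not tested. The gene lists too were chosen with earlier results of these data known, which limits what their calls show. For listed genes the difference between the mutants' effects was taken as psbA minus psaA deletion in limma, with an adjusted p under 0.05. It passed, in order of size, for loxD (-1.50), Ve2 (-1.36), CHI14 (-1.25), Wfi1 (-1.22), DGK1 (-1.22), Rab1A (-1.09), Eix1 (-1.09), AOC (-1.08), PLDb1 (-1.04), NPR1 (-0.84), PCNA (0.83), CHI9 (-0.68), the phosphate transporter gene PT1 (-0.61), ACO4 (-0.58) and PTI1 (-0.51). PT1 and PTI1 passed in no fit with 1 array left out. CHI14, Wfi1, NPR1, PCNA, CHI9 and ACO4 lost the call in some of these fits.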

How the results depend on the processing

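With 1 array left out, the cascade probe sets called numbered 1 to 4 in the psaA deletion (main 4), 1 to 3 in the psbA deletion (main 3) and 2 to 3 between the mutants (main 3), and all probe sets called numbered 494 to 994 (main 1083), 509 to 842 (main 1128) and 115 to 266 (main 402). A threshold of 0.01 gave 2, 1 and 2 cascade probe sets and 523, 491 and 145 in all. Poly-A scaling gave 2, 5 and 4 cascade probe sets and 1506, 6110 and 814 in all, of which 9.23%, 1.67% and 7.49% were higher, against 43.5%, 48.4% and 44.8% as deposited. On that scale SNF1 in the psbA deletion turned to -0.0091. Fitting only the groups compared gave 266 between the mutants. The other alternatives kept these counts within 1.5 times. Replicate numbers did not pair the samples (correlations of replicate differences between groups of 0.02, -0.0049 and -0.0086), and a replicate block left 4, 3 and 3 cascade probe sets and 916, 965 and 301 in all, and ended the calls of Ve2 (adjusted p = 0.0528), EIN2 (0.0546) and CycB2 (0.0509) in the psaA deletion, Nramp2 (0.064) in the psbA deletion, and PTI1 (0.0812) and PT1 (0.0837) between the mutants. With 2 arrays per group and no signal level, how near background a probe set lay could not be judged.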
